A study of Homo sapiens with 4 samples.

Results

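Exon skipping was examined in genes of 8 chromatin families, the KDM, KAT, HDAC, SETD, CHD, SMARC, ARID and BRD genes. Members were the rows of a table of skipped-exon events whose gene symbol begins with a family prefix followed by a digit or a capital letter. The pattern found 688 of the 65601 events of the table, in 93 genes. Events with a mean of at least 20 junction reads (reads that span a splice junction) over the 4 libraries were tested, which left 610 events on 497 exons of 89 genes, out of 54503 tested events in all. The tested member nearest the limit had a mean of 20 reads, and the untested member nearest it had 19.75, so 78 member events were too shallow to test. The pattern also caught the katanins and CHDH (23 tested events in 6 genes) and the antisense gene SETD5-AS1 (3 tested events), which are not chromatin genes. Without them 584 events in 82 genes remain.

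The cells were HEK 293T, an established human embryonic kidney line. Per the labels, 2 libraries came from cells that received a gapmer antisense oligonucleotide (ASO) against SNORD89, a C/D box small nucleolar RNA, at 70 nM, and 2 came from cells marked as untreated. The medium was changed after 24 hours and RNA was taken at 48 hours, poly(A) RNA was selected, and read pairs of 150 bases were sequenced. The labels call the samples of a group biological replicates, name no control ASO and do not make clear whether the untreated cells received the lipid reagent. The level of SNORD89 was not analysed here, and the identity of the line was not checked against markers. The headers and labels do not state which set of columns holds the ASO libraries, so every direction below is the first set against the second. Libraries 1 and 2 of a set are named by their place in the table, and these numbers pair nothing. Junction reads summed over all events numbered 38613055 and 39012939 in the first set against 42868431 and 43929373 in the second.

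Chromatin-modifying enzymes write, remove or read chemical marks on histones, and remodelling ATPases move or evict nucleosomes. KAT enzymes add acetyl groups to lysines and HDAC enzymes remove them, SETD proteins carry the SET domain of lysine methyltransferases, and KDM enzymes remove methyl groups. CHD and SMARC proteins form remodelling complexes, ARID proteins are mainly DNA-binding subunits of such complexes or relatives of them, and BRD proteins bind acetylated lysines through bromodomains. Many of these genes make isoforms by skipping an exon: skipping keeps the reading frame when the exon length is a multiple of 3, and including an exon that carries a stop codon can send the transcript to nonsense-mediated decay (NMD).

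The sequences of 6 coding exons are shown as examples. The first 3 differed between the sets in the deposited test. The last 3 are deeply read alternative exons that were not called. Capitals mark the alternative exon and lower case the last 15 and first 15 bases of its neighbouring exons in the spliced transcript, 5′ to 3′, from transcripts of GENCODE release 29 (GRCh38), matched by exon spacing. The hg19 positions are chr1:23370920-23370979 (plus strand) for KDM1A, chr22:50687532-50687597 (minus strand) for HDAC10, chr3:13544384-13544480 (plus strand) for HDAC11, chr5:137495244-137495288 (minus strand) for BRD8, chr17:47886481-47886570 (plus strand) for KAT7 and chr17:7810919-7811020 (plus strand) for CHD3.
KDM1A 60-base exon: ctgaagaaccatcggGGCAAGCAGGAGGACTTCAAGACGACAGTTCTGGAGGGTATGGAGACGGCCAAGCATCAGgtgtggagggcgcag
HDAC10 66-base exon: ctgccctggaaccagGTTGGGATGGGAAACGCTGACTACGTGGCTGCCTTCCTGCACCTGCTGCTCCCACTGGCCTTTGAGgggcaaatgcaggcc
HDAC11 97-base exon: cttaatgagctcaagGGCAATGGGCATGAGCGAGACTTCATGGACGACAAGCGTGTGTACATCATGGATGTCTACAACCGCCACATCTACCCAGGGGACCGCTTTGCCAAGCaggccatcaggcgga
BRD8 45-base exon: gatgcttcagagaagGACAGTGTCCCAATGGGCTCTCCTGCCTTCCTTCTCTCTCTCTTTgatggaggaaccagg
KAT7 90-base exon: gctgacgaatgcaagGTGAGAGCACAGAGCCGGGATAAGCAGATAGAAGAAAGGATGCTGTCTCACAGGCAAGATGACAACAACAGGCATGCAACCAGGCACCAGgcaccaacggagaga
CHD3 102-base exon: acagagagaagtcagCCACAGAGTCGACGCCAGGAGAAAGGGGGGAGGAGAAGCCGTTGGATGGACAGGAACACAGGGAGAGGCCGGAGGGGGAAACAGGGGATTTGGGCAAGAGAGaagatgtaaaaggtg
Of these 6 exons, 5 have a length that is a multiple of 3, and the HDAC11 exon leaves a remainder of 1 base. Their GC content ran from 52.2% in KAT7 to 61.8% in CHD3.

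Inclusion levels, the length-corrected share of reads that include the exon, were compared by subtracting the second set's mean from that of the first. An event was called when the authors' deposited table gave a false discovery rate (FDR) under 0.05 and an absolute difference of at least 0.1. By that rule 16 of 610 member events were called (2.62%), against 2.71% of all 54503 tested events. The 16 events lay on 16 exons of 13 genes: KDM1A, KDM1B, KDM8, KAT6A, HDAC10, HDAC11, SETD5, CHD6, CHD8, SMARCE1, ARID4A, BRD8 and BRD9. Inclusion was higher in the first set for 4 of them (0.656% of members, against 1.34% of all tested events) and lower for 12 (1.97%, against 1.37%). The levels of the sets did not overlap for 12 of the 16 (1.97% of members, against 2.14% of all). An FDR under 0.05 in the authors' deposited table was held by 37 members (6.07%, against 5.72% of all), and 80 had a p-value under 0.05 (13.1%, against 14.3%). The total share called lay near that over all tested events; the split by direction, 4 higher and 12 lower, was not tested against it.

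A second test, a quasi-binomial model of inclusion and skipping reads that takes the spread between libraries into its error, passed 0 of the 610 members at a Benjamini-Hochberg adjusted p under 0.05 (0.0239% of all tested events passed). At an unadjusted p under 0.05 it gave 47 members (7.70%, against 6.57% of all tested events). limma on log2 ratios of inclusion to skipping reads also passed 0 members. With a pseudocount of 0.5, 33 of the 610 members had an unadjusted limma p under 0.05, as did 4.85% of all tested events. With a pseudocount of 1 there were 41 such members, against 6.16% of all tested events. Of the 16 called events, 13 had an unadjusted quasi-binomial p under 0.05. They had been called on the same reads, so this is no independent support, and the share over all called events was not counted. With Pearson residuals and robust moderation in place of the deviance, 2 settings chosen after seeing the data, 1 member passed, the KDM1A exon. The calls below therefore rest on the authors' deposited test.

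Most called events were thinly read. Their median was 36.75 mean junction reads, against 177.5 for the member events not called, and 10 of the 16 had a mean under 50. KDM1A was the deepest, with a mean of 503.5 reads, and BRD8 was next with 182. For 7 of the 16 called events no skipping read was counted in second set library 2, and for 5 none was counted in second set library 1, so that many levels stand at exactly 1. Such a level is only as firm as its reads: 12 inclusion reads and 0 skipping reads for the 29-base HDAC10 exon in second set library 2 gave a 95% Wilson interval from 0.723 to 1. These intervals cover counting error only.

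**Figure D1:**
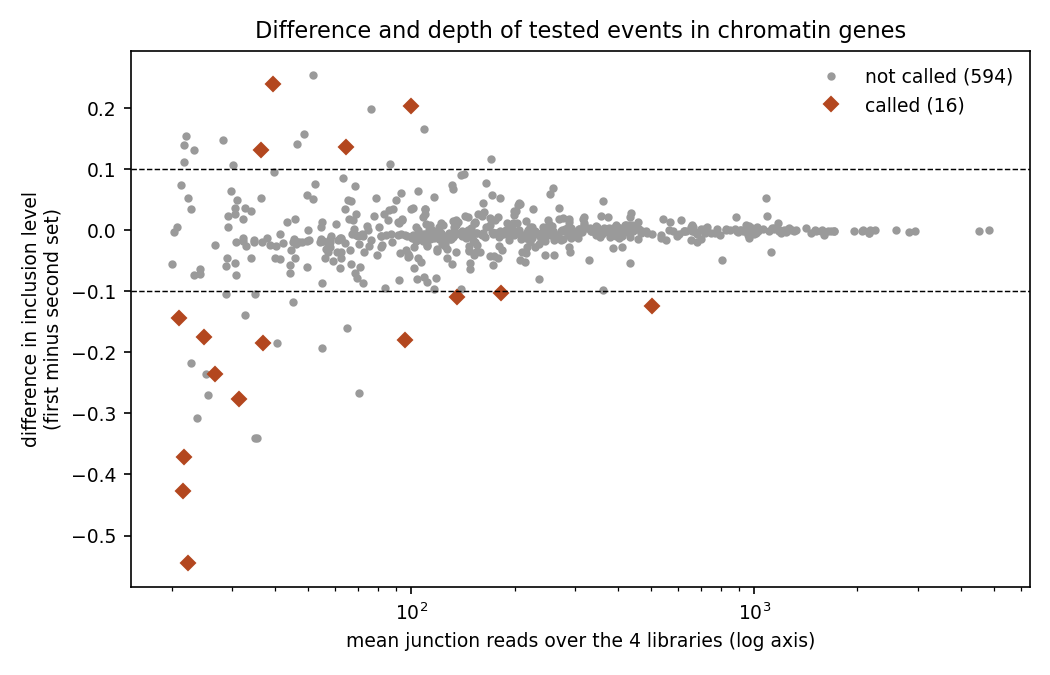
Difference in inclusion level (first set minus second set, deposited values) against mean junction reads on a log axis, 1 point per tested event of the chromatin genes, with dashed lines at differences of 0.1 in either direction. The 16 called events (diamonds) lie mostly at the shallow end, and KDM1A at 503.5 reads is the deepest of them.

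**Figure D2:**
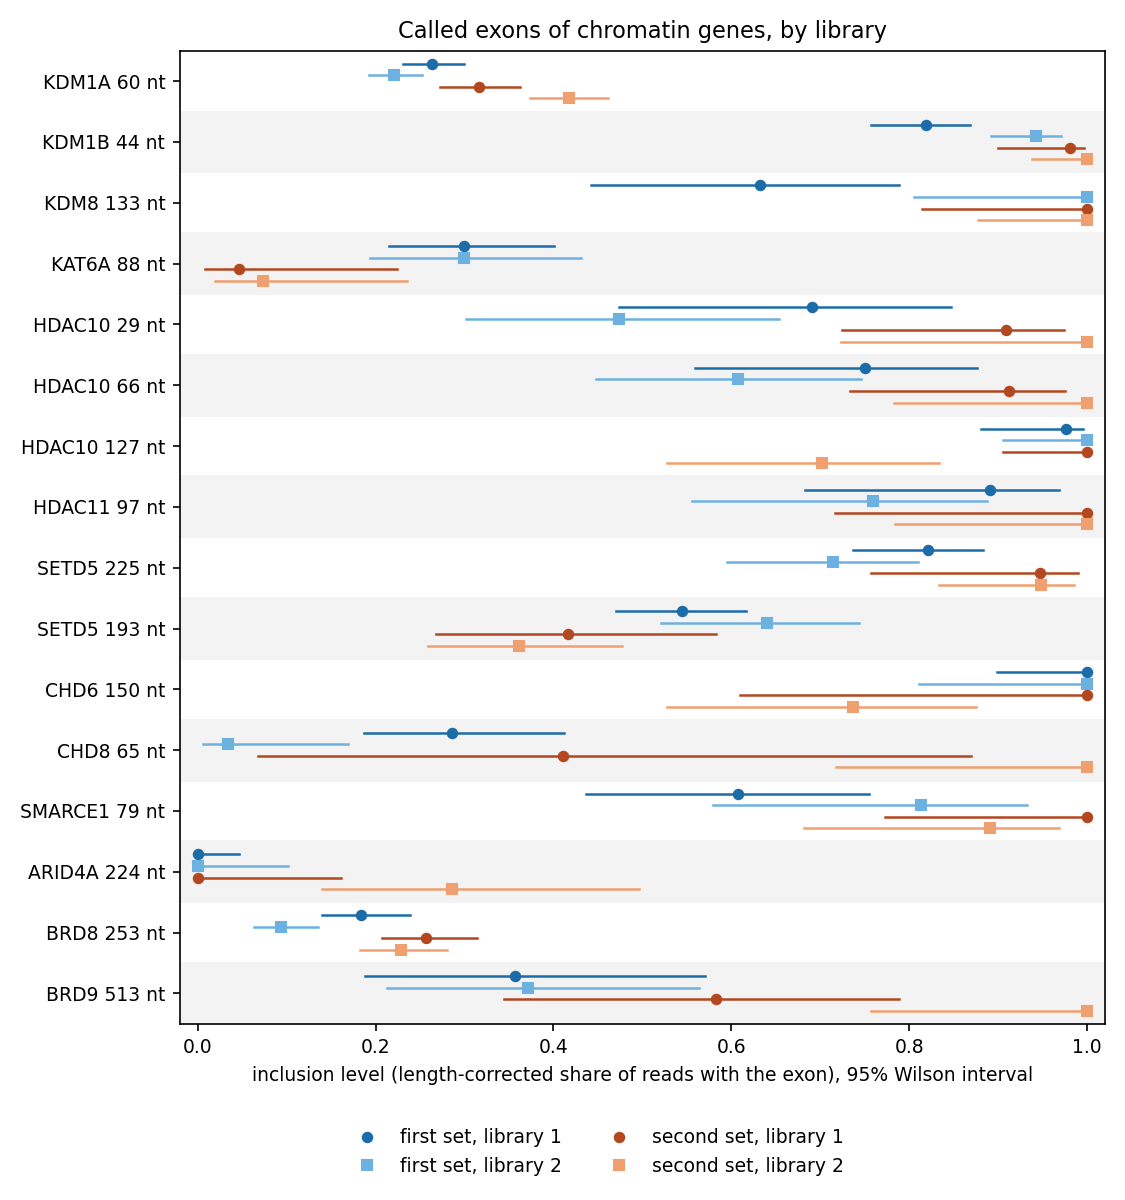
Inclusion level in each of the 4 libraries for the 16 called exons, named by gene and exon length in nucleotides and ordered by family; points are levels and bars 95% Wilson intervals on the junction reads. In 12 exons both libraries of a set lie on one side of both libraries of the other, and in KDM8, CHD6, ARID4A and the 127-base exon of HDAC10 1 library stands apart from the other 3.

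Among the lysine demethylases (KDM, 89 events in 16 genes), 3 events were called (3.37%, against 2.71% of all tested events). All 3 had lower inclusion in the first set (3.37%, against 1.37% of all), a split that was not tested. KDM1A encodes a flavin-dependent demethylase of the CoREST corepressor complex. Its 60-base coding exon, shown above, had inclusion levels of 0.264 and 0.221 in libraries 1 and 2 of the first set and of 0.316 and 0.417 in those of the second. Both levels of the first set lay below both of the second, and the 95% Wilson intervals of libraries 1 of the 2 sets, 0.231 to 0.299 and 0.273 to 0.362, overlapped. The counts behind them were 186, 176, 145 and 236 inclusion reads and 370, 442, 224 and 235 skipping reads. The authors' deposited table gave a difference of -0.124 with an FDR of 0.00951. The quasi-binomial p was 6.89e-05 and the adjusted p 0.109. The adjusted p ran from 0.0124 to 0.955 over the alternative tests on all 4 libraries, with limma at the upper end. Without second set library 2 the difference was -0.0733, under the limit of 0.1. The other 4 tested events of KDM1A differed by -0.003 to 0.009 in the authors' deposited table, with none under an FDR of 0.498.

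KDM1B encodes the close relative of KDM1A. A 44-base exon outside its coding sequence (chr6:18156114-18156157) had levels of 0.819 and 0.943 in the first set against 0.981 and 1 in the second. The sets did not overlap, and first set library 1 was the lowest of the 4. The authors' deposited table gave a difference of -0.109 with an FDR of 0.000347, the smallest FDR of the called members. It was -0.0473 without first set library 1 and -0.171 without first set library 2, and without second set library 2 it was -0.0998, just under the limit. The other 13 tested events of KDM1B had differences from -0.079 to 0.165 in the authors' deposited table. The largest of these, a 185-base coding exon, had levels of 0.801 and 0.799 in the first set against 0.902 and 0.369 in the second. There the 2 libraries of the second set lay on opposite sides of the first set, and the FDR in the authors' deposited table was 1.

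KDM8 encodes a protein with a Jumonji C domain. Its 133-base coding exon (chr16:27226197-27226329) had a level of 0.632 in first set library 1 and of 1 in the other 3 libraries, from 34, 30, 32 and 52 reads. The sets overlapped, and the difference of -0.184 (FDR 0.00965 in the authors' deposited table) was 0 without first set library 1. Without first set library 2 it was -0.368.

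Among the lysine acetyltransferases (KAT, 26 events in 7 genes), 1 event was called (3.85%, against 2.71% of all tested events). KAT6A encodes an acetyltransferase of the MYST family, and the event concerned an 88-base exon outside its coding sequence on chromosome 8. The levels were 0.2997 and 0.2990 in the first set against 0.0461 and 0.0729 in the second. The libraries of each set lay close together and the sets did not overlap. The authors' deposited table gave a difference of 0.240 with an FDR of 0.00232, and with each library left out the difference stayed between 0.227 and 0.253. The second set had 1 and 2 inclusion reads here, among 14 and 18 reads. A longer form of the same exon, 132 bases with the same end, shared the skipping reads and had levels of 0.507 and 0.523 in the first set against 0 and 0.633 in the second. Its difference of 0.199 had an FDR of 0.483 per the authors' deposited table, and its 2 second-set libraries lay on opposite sides of the first set.

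The deacetylases (HDAC, 121 events in 10 genes) held 4 called events (3.31%, against 2.71% of all tested events), of which 3 were in HDAC10. HDAC10 encodes a class II deacetylase that acts on polyamines. A 29-base exon found only in non-coding transcripts (chr22:50687260-50687288) had levels of 0.691 and 0.474 in the first set against 0.909 and 1 in the second. The 66-base coding exon beside it, shown above, had levels of 0.750 and 0.607 in the first set against 0.912 and 1 in the second. In both exons the first set lay below the second without overlap. The authors' deposited table gave a difference of -0.372 (FDR 0.00185) for the shorter exon and of -0.277 (FDR 0.00300) for the longer. Both events are measured against the same skipping reads, 6 and 13 in the first set against 2 and 0 in the second, so they are not separate observations. The same 29-base exon measured between another pair of exons had levels of 0.824 and 0.469 in the first set against 0.571 and 0.615 in the second, which overlap, with a difference of 0.053 (FDR 1) in the authors' deposited table. The 66-base exon between another pair had levels of 0.956 and 0.868 against 0.922 and 0.687, with a difference of 0.107 (FDR 0.182) in the authors' deposited table.

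The third HDAC10 event, a 127-base coding exon (chr22:50687757-50687883), had levels of 0.977 and 1 in the first set against 1 and 0.703 in the second. Second set library 2 stood apart from the other 3, and the sets overlapped. The difference of 0.137 (FDR 0.0261 in the authors' deposited table) became -0.0116 without second set library 2 and 0.286 without second set library 1, and it was 0.0867 with no correction for the lengths of the forms. The other 22 tested events of HDAC10 had differences from -0.269 to 0.254 in the authors' deposited table, with none under an FDR of 0.117.

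HDAC11 encodes the class IV deacetylase, which removes fatty acyl groups from lysine. Its 97-base coding exon, shown above, had levels of 0.891 and 0.759 in the first set against 1 in both libraries of the second. The sets did not overlap, but the skipping reads numbered only 2 and 5 in the first set against 0 and 0 in the second. The authors' deposited table gave a difference of -0.175 with an FDR of 0.00837. It was -0.109 without first set library 2 and -0.115 with no correction for form lengths. A second event on this exon, between another pair of exons, had levels of 1 and 0.874 in the first set against 0.906 and 0.657 in the second. Its difference in the authors' deposited table had the opposite sign, 0.155, with an FDR of 0.130.

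The SETD family (79 events in 12 genes) held 2 called events (2.53%, against 2.71% of all tested events). SETD5, which encodes a SET-domain protein, held both. Both are adjacent exons that carry an annotated stop codon and occur only in NMD transcripts. The 225-base exon (chr3:9471511-9471735) had levels of 0.821 and 0.714 in the first set against 0.947 and 0.949 in the second. The 193-base exon (chr3:9475054-9475246) had levels of 0.545 and 0.640 in the first set against 0.417 and 0.361 in the second. Neither pair of sets overlapped, and the directions were opposite. The authors' deposited table gave a difference of -0.180 (FDR 0.00736) for the 225-base exon and of 0.204 (FDR 0.0454) for the 193-base exon. With each library left out, the first stayed between -0.234 and -0.127 and the second between 0.156 and 0.251. With no correction for form lengths the first was -0.106.

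Each exon also had a second tested event with the opposite sign. That of the 225-base exon had a difference of 0.061 (FDR 1) and that of the 193-base exon one of -0.193 (FDR 0.127) in the authors' deposited table. The latter was measured against only 1 and 2 skipping reads in the second set. The other 15 tested events of SETD5 ran from -0.193 to 0.074 in the authors' deposited table.

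The CHD helicases (74 events in 9 genes) held 2 called events (2.7%, against 2.71% of all tested events). CHD8 encodes a remodeller that binds beta-catenin. Its 65-base exon outside the coding sequence (chr14:21905060-21905124) had levels of 0.286 and 0.0336 in the first set against 0.410 and 1 in the second. The sets did not overlap, but second set library 1 held only 2 reads, with a 95% Wilson interval from 0.0678 to 0.870. The authors' deposited table gave a difference of -0.545, the widest of the 16, with an FDR of 0.00204. Without second set library 2 it was -0.251 and without second set library 1 it was -0.840. A second event on the exon had overlapping sets and a difference of -0.217 (FDR 0.737) in the authors' deposited table.

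CHD6 encodes a helicase of the same family. A 150-base exon (chr20:40141485-40141634), not matched to the annotation, had a level of 1 in both first-set libraries and in second set library 1 and of 0.737 in second set library 2. The sets overlapped, and 5 skipping reads in that 1 library made up the whole difference. The authors' deposited table gave 0.131 with an FDR of 0.0411. The difference was 0 without second set library 2, 0.263 without second set library 1 and 0.0758 with no correction for form lengths.

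The SMARC subunits (91 events in 13 genes) held 1 called event (1.1%, against 2.71% of all tested events). SMARCE1 encodes an HMG-box subunit of the BAF remodelling complex. Its partly coding 79-base exon (chr17:38786460-38786538) had levels of 0.607 and 0.813 in the first set against 1 and 0.891 in the second, from 37, 23, 20 and 27 reads. The sets did not overlap. The authors' deposited table gave a difference of -0.236 with an FDR of 0.0165, and without first set library 1 it was -0.132. A second event on the same exon, joined to another neighbour and read far more deeply, had levels of 0.0367 and 0.0337 in the first set against 0.0262 and 0.0221 in the second. Its skipping reads numbered 1065, 974, 1165 and 1272, and its difference of 0.012 had an FDR of 0.211 per the authors' deposited table.

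The ARID genes (33 events in 8 genes) held 1 called event (3.03%, against 2.71% of all tested events). ARID4A encodes a chromodomain protein of the SIN3 deacetylase complex. Its 224-base exon with a stop codon, found only in NMD transcripts (chr14:58770256-58770479), had a level of 0 in 3 libraries and of 0.286 in second set library 2. The sets overlapped. No inclusion read was counted among 39 and 17 reads in the first set and 10 in second set library 1, and the upper Wilson bounds there were 0.0469, 0.102 and 0.161. The authors' deposited table gave a difference of -0.143 with an FDR of 0.00979, which was 0 without second set library 2, -0.286 without second set library 1 and -0.222 with no correction for form lengths.

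The BRD family (71 events in 7 genes) held 2 called events (2.82%, against 2.71% of all tested events). Both lay on exons found only in NMD transcripts. BRD8 encodes a bromodomain subunit of the NuA4/TIP60 acetyltransferase complex. Its 253-base exon (chr5:137493331-137493583) had levels of 0.184 and 0.0935 in the first set against 0.257 and 0.228 in the second, from 164, 152, 203 and 210 reads. Both libraries of the first set lay below both of the second. The authors' deposited table gave a difference of -0.103 with an FDR of 0.0164. It was -0.0584 without first set library 2 and -0.0893 without second set library 1, both under the limit. A second event on the exon, joined to another neighbour, had levels of 0.122 and 0.104 in the first set against 0.183 and 0.203 in the second. It also did not overlap, and its difference of -0.08 had an FDR of 0.0154 per the authors' deposited table. Both events share the junction to the same neighbouring exon.

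BRD9 encodes a bromodomain subunit of the non-canonical BAF complex. A 513-base exon (chr5:868722-869234) had levels of 0.357 and 0.371 in the first set against 0.583 and 1 in the second, from 19 to 24 reads a library. The sets did not overlap, and second set library 2 was the highest. The authors' deposited table gave a difference of -0.427 with an FDR of 0.0358, and without second set library 2 it was -0.219. Deeper events in the same stretch of BRD9, named here after their values were seen, had the opposite sign. The junction that skips the 513-base exon runs to the exon of these events, where it counts towards inclusion. Opposite signs therefore follow in part from shared reads and are not separate observations. A 150-base NMD-only exon had levels of 0.0579 and 0.0613 in the first set against 0.0156 and 0.0128 in the second, with a difference of 0.045 at an FDR of 0.000305 per the authors' deposited table. A 160-base form of it, measured against the same skipping reads, had a difference of 0.041 with an FDR of 0.000575 per the authors' deposited table.

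Leaving out 1 library at a time, 14 of the 16 called events still differed by 0.1 or more, with the same sign, without first set library 1, 15 without first set library 2, 15 without second set library 1 and 11 without second set library 2. The KAT6A exon, both SETD5 exons and the 29-base and 66-base HDAC10 exons kept it in all 4 cases with no change of over 1.5 times. The 29-base and 66-base HDAC10 exons are measured against the same skipping reads, so they are not separate results. All these events had been called on the same 4 libraries, so a kept difference is no independent support. The same count was not made for the called events of other genes. Of the 14 other tested events on the called exons, 5 had a difference of the same sign and 9 of the opposite sign. Only 1, on the BRD8 exon, had an FDR under 0.05 in the authors' deposited table. The 127-base HDAC10 exon held 5 of the 14, with 2 of the same sign and 3 of the opposite sign. Events on 1 exon can share reads, so these signs are not separate observations. They were not counted over the called exons of all genes. Elsewhere in the called genes, the authors' deposited table gave differences of -0.104 to 0.005 for the 8 other events of KDM8, -0.074 to 0.155 for the 9 of HDAC11, -0.026 to 0.14 for the 5 of CHD6 and -0.217 to 0.022 for the 6 of CHD8. For the 5 of SMARCE1 they ran from -0.011 to 0.012, for the 3 of ARID4A from -0.104 to -0.017, for the 20 of BRD8 from -0.08 to 0.035 and for the 8 of BRD9 from -0.04 to 0.045, again in the authors' deposited table.

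**Figure D3:**
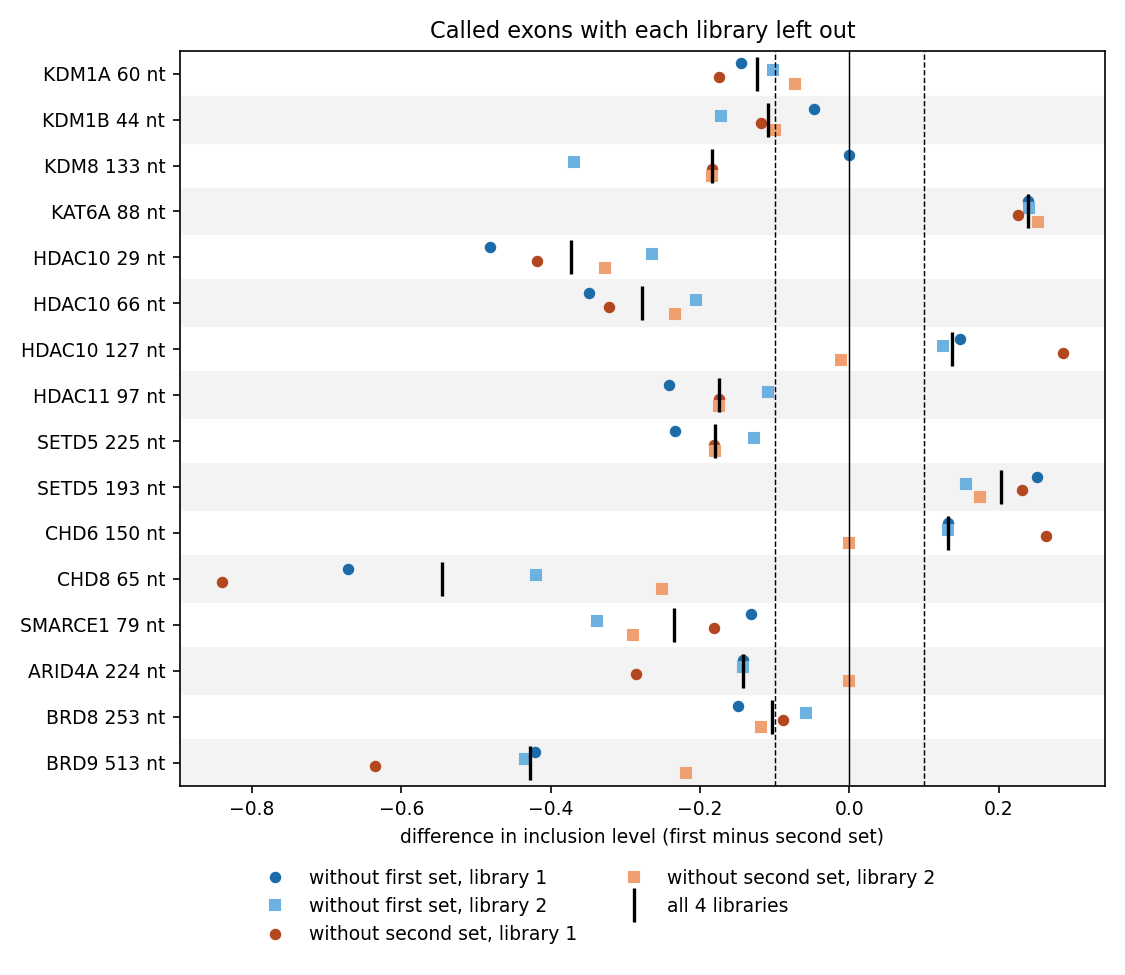
Difference in inclusion level (first set minus second set) of the 16 called exons with all 4 libraries (black bar) and with each library left out (points), with dashed lines at differences of 0.1 in either direction. The points of KAT6A stay between 0.227 and 0.253, while those of KDM8, CHD6 and ARID4A reach 0 and that of the 127-base HDAC10 exon crosses to -0.0116.

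Below the limit on the difference, 21 member events in 14 genes had an FDR under 0.05 in the authors' deposited table with absolute differences from 0.022 to 0.098. They made up 3.44% of the members, against 3.01% of all tested events. In 14 inclusion was lower in the first set (2.30% of members, against 1.31% of all) and in 7 higher (1.15%, against 1.70%), and 18 did not overlap between the sets (2.95%, against 2.22%). A few are named here after their values were seen. CHD1L, a helicase recruited by poly(ADP-ribose), had a 113-base exon with levels of 0.870 and 0.828 in the first set against 0.956 and 0.938 in the second, from 276 to 459 reads a library. The difference was -0.098 with an FDR of 0.000675 per the authors' deposited table, and the quasi-binomial p was 0.00395. The other 2 tested events on that exon, joined to other neighbours, did not share this pattern. One had levels of 0.852 and 0.854 in the first set against 0.812 and 0.738 in the second, which also did not overlap but lay the other way, with a difference of 0.078 at an FDR of 0.382 per the authors' deposited table. The other had a difference of -0.01 at an FDR of 1 per the authors' deposited table, with overlapping sets.

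HDAC8, a class I deacetylase encoded on the X chromosome, had a 109-base coding exon with levels of 0.945 and 0.861 in the first set against 1 and 1 in the second. The difference was -0.097 with an FDR of 0.00129 per the authors' deposited table. HDAC8 had 18 tested events. Of the others, 3 had overlapping sets, differences of -0.047, -0.014 and -0.007 and an FDR of 1 per the authors' deposited table. The rest are not described here. ARID4B, the relative of ARID4A, had a 114-base exon of non-coding transcripts with levels of 0.00951 and 0.0302 in the first set against 0.0778 and 0.124 in the second. The difference was -0.081 with an FDR of 0.00105 per the authors' deposited table. In the HDAC8 event named first and in the ARID4B event both libraries of the first set lay below both of the second.

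The 10 deepest member exons with a mean level of 0.2 to 0.8 that were not called, each taken by its deepest event, are those of BRD1, BRD8, CHD1, CHD3, HDAC10, KAT7, KATNA1, KDM5A, SETD6 and SETD8. The sets overlapped in 9 of the 10, all with a difference under 0.06 and an FDR of 1 per the authors' deposited table. Called events had been left out of this choice, so small differences here follow in part from it. Over all tested events with a mean level of 0.05 to 0.95, the sets did not overlap in 33.2%. The 45-base exon of BRD8 had levels of 0.610 and 0.573 in the first set against 0.648 and 0.546 in the second. It skips against the same reads as the called 253-base exon of that gene. The 90-base exon of KAT7, the MYST acetyltransferase also called HBO1, had levels of 0.742 and 0.844 in the first set against 0.822 and 0.720 in the second. The 102-base exon of CHD3, an ATPase of the NuRD complex, had levels of 0.310 and 0.341 in the first set against 0.389 and 0.321 in the second. In these 3 exons, whose sequences are above, the difference between the sets was smaller than the gap between the libraries of either set.

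CHD1, a helicase that binds methylated histone tails, had a 264-base coding exon with levels of 0.248 and 0.246 in the first set against 0.188 and 0.390 in the second. The libraries of the second set lay on either side of the first set, and the difference was 0.0586 without second set library 2 and -0.143 without second set library 1. The 122-base exon of SETD8, the methyltransferase of histone H4, had levels of 0.764 and 0.561 in the first set against 0.747 and 0.601 in the second, which overlap. The 145-base exon of SETD6, a methyltransferase of non-histone proteins, had levels of 0.746 and 0.767 in the first set against 0.763 and 0.830 in the second.

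The 85-base exon of HDAC10 had levels of 0.472 and 0.396 in the first set against 0.510 and 0.450 in the second, and its sets overlapped, unlike the 29-base and 66-base exons of the gene. The 82-base exon of KDM5A, a Jumonji demethylase, had levels of 0.298 and 0.323 in the first set against 0.419 and 0.306 in the second. KATNA1, the katanin subunit that severs microtubules, had a 206-base exon with levels of 0.789 and 0.803 in the first set against 0.850 and 0.741 in the second. The exception without overlap was the 311-base exon of BRD1, a scaffold of MYST acetyltransferase complexes. It had levels of 0.475 and 0.469 in the first set against 0.423 and 0.288 in the second, with a difference of 0.116 at an FDR of 0.211 per the authors' deposited table.

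**Figure D4:**
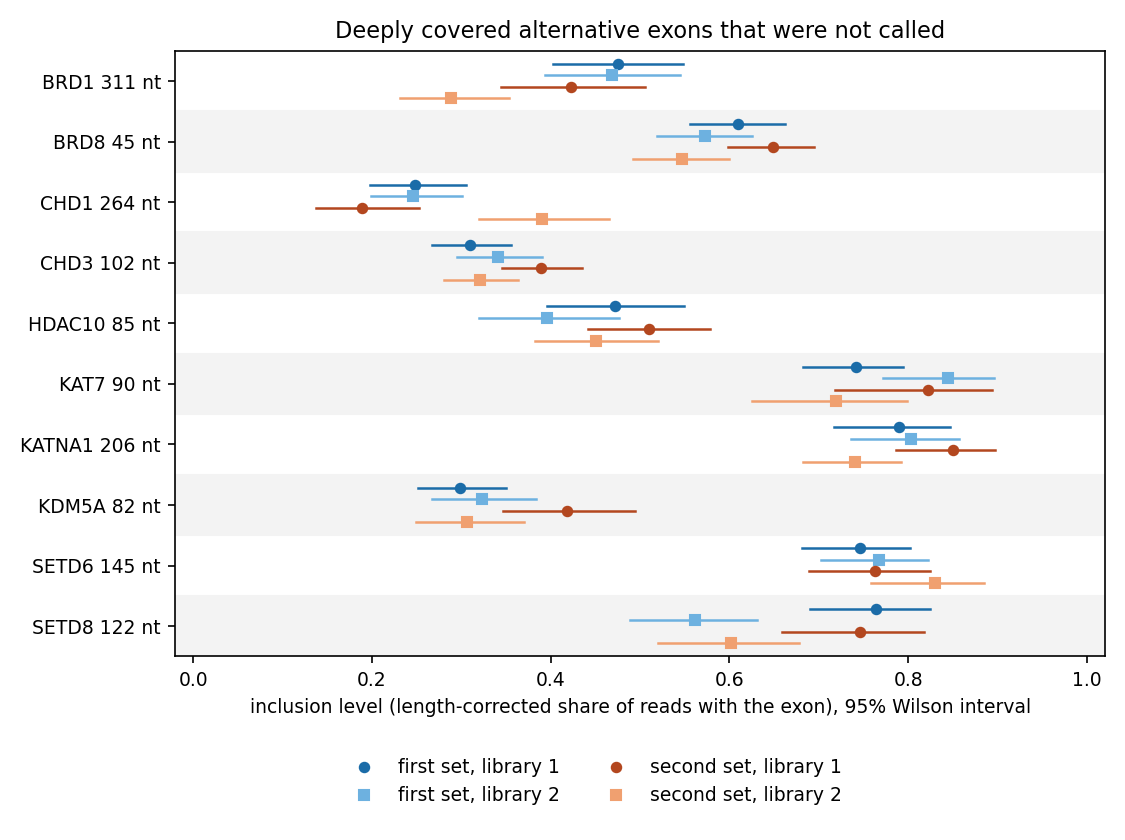
Inclusion level in each of the 4 libraries for the 10 deepest alternative exons that were not called, named by gene and exon length in nucleotides; points are levels and bars 95% Wilson intervals. The libraries of the 2 sets intermix in 9 exons, and in BRD1 the second set lies below the first, with library 2 at 0.288.

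Over all 610 member events, 68.5% had a mean level above 0.95 (66.1% of all tested events), 24.6% a level of 0.05 to 0.95 (24.6% of all) and 6.89% a level below 0.05 (9.30% of all). The sets did not overlap in 44 of the 150 alternative events between those limits, 29.3%, against 33.2% of all alternative events. The median gap between the 2 libraries of a set was 0.0508 in the first set against 0.0953 in the second, against 0.0494 and 0.0876 over all alternative events. This covers the 149 events with a level in every library. A gap of over 0.2 was seen in 17 member events in the first set, 11.3% of the 150 against 7.87% of all alternative events, and in 35 in the second, 23.3% against 22.2%. The part of this wider spread in the calls that rest on second set library 2 was not tested.

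Alternative exons by family numbered 20 in KDM, 5 in KAT, 27 in HDAC, 21 in SETD, 17 in CHD, 10 in SMARC, 10 in ARID and 14 in BRD genes. The length was a multiple of 3 in 44.2% of the 129 alternative exons of all members, against 43.4% over all genes. By annotation, 58.7% of the 150 alternative events were on coding exons (60.2% of all alternative events) and 22, or 14.7%, on exons found only in NMD transcripts (7.61% of all). Of those 22, 8 were in SETD and 7 in BRD genes. Among the 16 called events, 5 were coding, 1 partly coding, 3 outside the coding sequence, 5 NMD-only, 1 in non-coding transcripts only and 1 unmatched, and 5 had a length that is a multiple of 3.

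The reads behind the levels also differed between the sets. For each gene the tested event with most reads was taken, in junction reads per 1000000 of the summed junction reads of the library. This follows junction reads at 1 place in a gene and is not a gene expression level; less RNA of the gene and fewer reads over that junction cannot be told apart. Of the 89 member genes, 52 were lower in the second set without overlap (58.4%, against 50.8% of all 9982 genes) and 12 were higher without overlap (13.5%, against 16.9%). The median ratio of the second set to the first was 0.718 over the members and 0.829 over all genes. No test was made of these ratios.

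By family, the median ratio was 0.423 in KAT, 0.531 in ARID, 0.603 in CHD, 0.659 in KDM, 0.689 in BRD, 0.793 in SETD, 0.834 in SMARC and 0.983 in HDAC genes. KAT6A had the lowest ratio of the members, 0.109, with 5.46 and 3.79 reads per 1000000 in the first set against 0.397 and 0.615 in the second. CHD6 followed at 0.155, with 4.45 and 3.26 in the first set against 0.560 and 0.637 in the second. SETD5 had 12.1 and 9.46 in the first set against 3.71 and 3.78 in the second. In these 3 called genes both libraries of the second set lay below both of the first, and at this event they held fewer reads. The second set was also lower without overlap in KDM1B (ratio 0.615), HDAC11 (0.65), BRD8 (0.689), BRD9 (0.718) and CHD8 (0.944). This is not particular to called genes, since it held for 50.8% of all genes. The sets overlapped in KDM8 (1.09), SMARCE1 (1.05) and ARID4A (0.687). KDM1A had 59.9 and 60.1 in the first set against 66.4 and 65.2 in the second, slightly higher in the second without overlap, and HDAC10 overlapped, with 6.53 and 7.61 against 9.21 and 6.37.

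**Figure D5:**
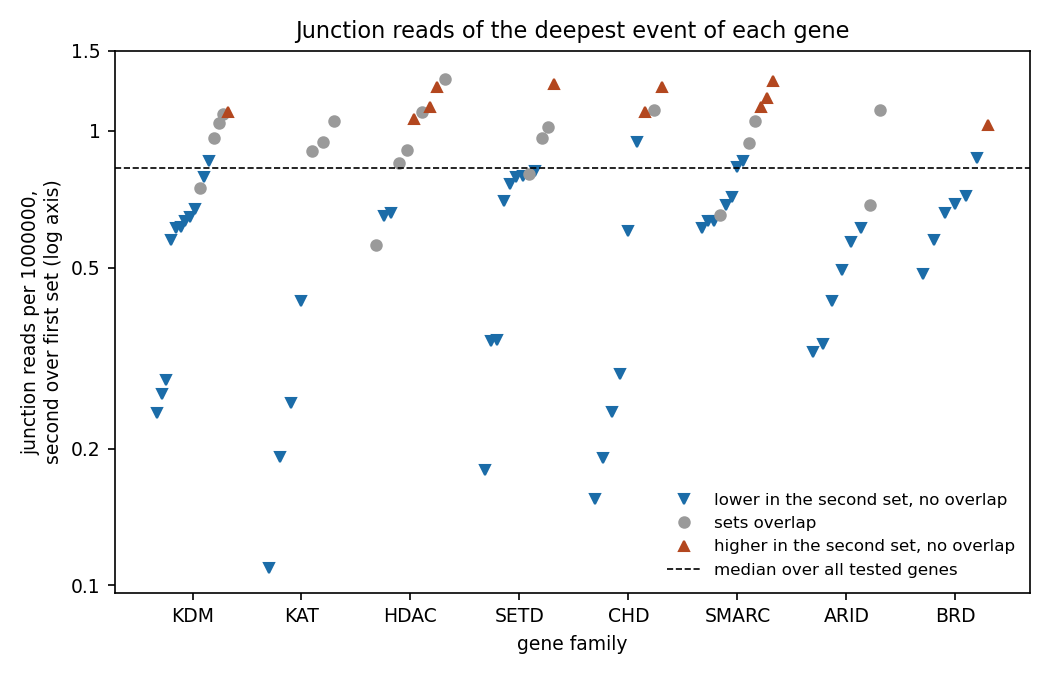
Ratio of the second set to the first in junction reads per 1000000 of the deepest tested event, on a log axis, 1 point per chromatin gene and by family; triangles mark genes whose sets do not overlap and the dashed line the median over all tested genes, 0.829. KAT6A at 0.109 is the lowest point, and the HDAC genes centre near 1, with a median of 0.983.

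A list of 158 other chromatin genes outside the name pattern, among them the p300, KMT, PRMT, SIRT, INO80, polycomb and NuRD genes, was counted in the same way. It had 967 tested events in 142 genes. Of these events 17, in 14 genes, were called (1.76%, against 2.71% of all tested events). Inclusion in the first set was higher in 7 (0.724%, against 1.34% of all) and lower in 10 (1.03%, against 1.37%). The katanins, CHDH and SETD5-AS1 held none of the 16 calls, from 26 tested events.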

How the data were processed

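The data were 1 comparison table of skipped exons, with the column layout of rMATS per the file headers; its version, settings and annotation release are not given in the sources used here. The submitters' processing notes name cutadapt, STAR and the hg19 build. Each cell holds the junction read counts of both libraries of a set, deposited by the authors without normalization, as whole numbers. The deposited inclusion level is a length-corrected share, and the deposited difference is a score from -1 to 1, the first set minus the second. The p-value and FDR of each event were deposited by the authors; levels and differences recomputed from the reads differed from theirs by at most 0.0014. The 95% Wilson intervals follow from the reads of each event in a library and cover counting error only.

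Events with a mean of at least 20 reads were tested. The quasi-binomial test was fitted to all 54503 of them (R 4.3.3, limma 3.58.1), with the dispersion, taken from the deviance, moderated along a trend on reads and with the robust setting, and never under 1, and Benjamini-Hochberg adjustment over all of them. The calculation was tested on simulated data. The form of the dispersion was chosen among 6 forms by recovery in simulated data after the results of each form on the real table had been seen; the other 5, and moderation without the robust setting, are given as alternatives. Members and lists were chosen with earlier results of these data known. Exons were named by rule: called events without overlap (1 per exon), called events with overlap, events past the quasi-binomial test, the 10 deepest uncalled exons with a mean level of 0.2 to 0.8, and the other events of called genes by range. Exon classes and sequences came from GENCODE release 29 by the spacing of exons within the gene (97.0% of tested events, 579 of 610 members); positions are those of the table and none was converted. Tables were prepared with Python 3.11.15 and pandas 2.3.3. Alternatives varied the read minimum, the limits on difference and FDR, the adjustment, the events per exon, the test and the libraries.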

Additional observations from a re-analysis of the deposited data

How the results depend on the processing

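No paired analysis was possible because reads of both libraries of a set stand in 1 cell without replicate numbers. The count of 16 called member events became 6 at a mean of at least 50 reads and 31 at a difference of at least 0.05. It became 7 at a difference of at least 0.2 and 10 at an FDR under 0.01. With only the event of most reads kept on each exon it was also 10. On the other called exons the event with most reads was not called. The count was 22 with no read minimum, 19 with a minimum of 10 reads and 15 with adjustment over tested events only. It was 12 without overlap of the sets and 16 without the katanins and CHDH. Apart from the count without overlap, these recounts were made for the members only. No share over all tested events stands beside them, so whether the changes are particular to the members was not tested. Leaving out 1 library at a time, 11 to 15 of the 16 kept a difference of at least 0.1, the fewest without second set library 2. The events had been called on all 4 libraries, so these counts are no independent support. The 0 members past the quasi-binomial test became 1, KDM1A, with Pearson residuals and robust moderation, with or without the trend (adjusted p 0.0158 and 0.0124); the cause was not tested. These forms were added after seeing the data, as were 4 others with 0 members past it. The other tests on all 4 libraries gave 0 members, and limma gave KDM1A an unadjusted p of 0.31 and 0.301 for the pseudocounts 0.5 and 1. With 1 library left out, 0 to 16 of the 610 members had an unadjusted p under 0.05, so these fits say nothing on stability. Of the 16 called exons, 1 changed sign under an alternative, the 127-base HDAC10 exon, with differences from -0.0116 without second set library 2 to 0.286 without second set library 1. Of the 10 named exons that were not called, 7 changed sign with 1 library left out (BRD8, CHD1, CHD3, KAT7, KATNA1, KDM5A and SETD8), so their directions are not settled. The widest of these were SETD8, from -0.0118 to 0.0896 without first set library 2, and CHD1, from -0.0421 to 0.0586 without second set library 2. A mean under 50 reads was seen in 10 of the 16 called events, and the part of depth in these calls was not tested.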
